A study of Arabidopsis thaliana with 74 samples.

Results

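The 6 loci described encode or act with immune receptors of Arabidopsis thaliana and were followed through 74 RNA-seq libraries: CSA1 (AT5G17880), CHS3 (AT5G17890, listed by RefSeq as DAR4), SNC1 (AT4G16890), RPP4 (AT4G16860), RPP5 (AT4G16950) and ACD6 (AT4G14400). They are 6 of 32833 genes in the count table and 6 of the 19383 genes that passed the expression filter of 1 CPM in 2 libraries, CPM being counts scaled to the normalized library total, so no member was lost to it. The list was chosen by the known role of its genes and by measured values: CSA1 was selected on its lower level in epiHybrids than in epiRILs, and the others with their levels in these libraries known. The group differences of the members are therefore a description. Where a member is said to be among the genes called across the whole table (adjusted p under 0.05), this places it in that table and is no test of it.

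The libraries were 36 of epiHybrids, 36 of their epiRIL fathers, and 1 each of msCol 12 and msCol 16. epiRILs are inbred Columbia lines that descend from a ddm1-2 mutant and differ mainly in DNA methylation. An epiHybrid is the F1 of an epiRIL father and an msCol mother, a Columbia line that is male sterile through the ms1 allele of MALE STERILITY 1 and keeps a Landsberg (Ler) segment around that gene on chromosome 5. All plants were harvested 27 days after sowing and each line gave 1 library from rosettes of several pooled cultivations. Plants of the same line cannot be compared in such a pool, p-values measure the spread between lines, and fewer cells of a type and less RNA per cell cannot be told apart. The families were picked by the study for their leaf area relative to the parents, and the 2 msCol libraries stand for 2 sister lines. The labels do not say which of them was the mother of a given epiHybrid.

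Plant NLR proteins are intracellular receptors that bind nucleotides through a P-loop and sense pathogen molecules through leucine-rich repeats. Those with an amino-terminal TIR domain act through EDS1 and helper NLRs and lead to salicylic acid accumulation and local cell death. CSA1 and CHS3 are TIR-NLRs encoded head to head that work as a pair, and CHS3 carries an added LIM and DA1-like domain. SNC1, RPP4 and RPP5 are TIR-NLRs of a single cluster in which RPP4 and RPP5 are known from resistance to downy mildew, and gain of function in SNC1 gives constitutive defence with dwarfed growth. ACD6 is a membrane protein with ankyrin repeats that raises salicylic acid signalling, and is not an NLR.

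On TAIR10.1, CSA1 lies at chr5:5908834-5913317 on the minus strand and CHS3 at chr5:5916862-5923494 on the plus strand, with 3544 bases between their starts. MS1 lies 1.44 Mb beyond the end of CHS3. RPP4 (chr4:9488466-9495837), SNC1 (chr4:9500271-9505972) and RPP5 (chr4:9538233-9544755) are all on the minus strand and span 56.29 kb, and ACD6 (chr4:8294165-8299195, plus strand) lies 1.19 Mb from RPP4. RPP5 overlaps the annotated loci AT4G02965 and AT4G16955, and the strand setting of the read counting is not given in the sources used here. All 6 have long transcripts, from 3228 exonic bases in ACD6 to 5801 in RPP5.

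The P-loop codons are shown because each of the 5 receptors has a match to this motif and because they show how close the cluster members are. A match alone does not place a protein in a family, and no other domain was searched for. Each run covers the 8 codons of the first P-loop match in the RefSeq coding sequence, and the capitals mark the codons of the closing glycine, lysine, and serine or threonine.
CSA1: gggatgcccggtataGGTAAAACC
CHS3: ggtatgcctggcataGGCAAGACG
SNC1: ggacaatcagggattGGTAAGAGT
RPP4: ggacagtcagggattGGTAAGAGT
RPP5: ggacaatcagggattGGTAAGAGT

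SNC1 and RPP5 had the same 24 bases there, and ACD6 had no P-loop match. Over the aligned bases of the coding sequences, gaps left out, SNC1 was 91.8% identical to RPP5 (3866 aligned bases) and 80.8% to RPP4 (3372 bases). RPP4 was 90.8% identical to RPP5 (3399 bases). CSA1 was 58.3% identical to its partner CHS3 (3322 bases). Likeness of sequence bears on how a read can be assigned. Of all 50-base windows in the exons, 100% occurred once in the genome in CSA1 and CHS3 and 99.8% in ACD6, against 78.8% in SNC1, 70.9% in RPP4 and 54.9% in RPP5. With 100-base windows the shares were 96.9%, 90.27% and 70.3% in the cluster members. RPP5 shared most with AT4G16920, including an exact run of 777 bases at chr4:9540103-9540879, and SNC1 shared a run of 154 bases with RPP5 at chr4:9503364-9503517. The first 60 bases of each run follow on the minus strand, to show stretches from which a read could not be placed in 1 gene.
RPP5 and AT4G16920: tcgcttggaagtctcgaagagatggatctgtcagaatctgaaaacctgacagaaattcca
SNC1 and RPP5: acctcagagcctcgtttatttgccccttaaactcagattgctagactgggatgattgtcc

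The levels of SNC1, RPP4 and RPP5 are therefore uncertain as values of single genes, and how reads that fit several places were counted is not given in the sources used here. CSA1, CHS3 and ACD6 do not have this limit.

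The 250 bases upstream of CSA1 and CHS3 are shown because these neighbours varied closely together over 72 libraries. Capitals mark the W-box core TTGAC or its reverse complement GTCAA, the motif that WRKY factors bind.
CSA1: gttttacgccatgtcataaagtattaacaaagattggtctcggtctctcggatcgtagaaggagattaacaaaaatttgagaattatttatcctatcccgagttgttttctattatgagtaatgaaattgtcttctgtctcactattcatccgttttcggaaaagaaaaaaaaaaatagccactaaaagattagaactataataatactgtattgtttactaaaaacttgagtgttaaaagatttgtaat
CHS3: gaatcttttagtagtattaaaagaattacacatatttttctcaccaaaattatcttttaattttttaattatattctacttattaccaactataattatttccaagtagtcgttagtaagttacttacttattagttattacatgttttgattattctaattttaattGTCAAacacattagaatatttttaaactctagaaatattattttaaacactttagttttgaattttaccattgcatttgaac

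The runs are chr5:5913318-5913567 on the minus strand and chr5:5916612-5916861 on the plus strand. The core was found 1 time in CHS3 and 1 time in SNC1 and in none of the other 4 members, while 44.9% of 27443 windows of this length upstream of protein-coding genes held at least 1.

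Library totals ran from 38130406 to 42206920 counts. The summed CPM of 4 rosette leaf markers was 15151 to 84547 over epiRILs and epiHybrids, and that of 6 flower markers 7.82 to 32.4 (12.1 and 23.0 CPM in msCol). Libraries also differed in a way that touches long genes. The length slope is the slope of a library's deviations from the mean log2(CPM + 1) on log2 exon length, and a negative value means relatively few counts in long genes. It ran from -0.36 to 0.20 in epiHybrids and from -0.32 to 0.13 in epiRILs, and was 0.06 and 0.09 in msCol 12 and msCol 16. The epiHybrid libraries of families 310 and 340 had slopes of -0.36 and -0.32, that of family 368 had the highest slope of all, and an earlier analysis had set these 3 families apart.

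Families 12 and 568 held libraries that went against their labels. For each library, its place between the median epiRIL, set at 0, and the msCol mean, set at 1, was taken as the median over 82 genes between 6.1 and 9 Mb on chromosome 5 that were called between epiRILs and msCol. CSA1, CHS3 and their neighbours were not among these genes. Of the epiRILs, 34 lay between -0.09 and 0.10 and of the epiHybrids 34 lay between 0.23 and 0.56. The libraries labelled epiRIL 12 and epiRIL 568 lay at 0.26 and 0.26, and those labelled epiHybrid 12 and epiHybrid 568 at -0.01 and -0.07. In both families each library thus lay on the other group's side. Groups were kept as labelled. Many of the levels, fold changes, counts and correlations that rest on them are also given without these 2 families. Correlations with the length slope, correlations between members after regression on it, and the genes closest to each member were not computed in that way.

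CSA1 and CHS3 were lower in epiHybrids than in their fathers, and both varied widely between the msCol lines. CSA1 ran from 4.69 through a median of 13.8 to 18.9 CPM in epiHybrids and from 4.80 through 22.2 to 29.4 CPM in epiRILs, with 2.27 CPM in msCol 12 and 10.6 CPM in msCol 16. The lowest epiRIL value came from the library labelled epiRIL 568. Without families 12 and 568 the epiRILs started at 13.2 CPM, and the groups overlapped only between that value and 18.9 CPM. The epiHybrid mean was 12.7 ± 3.61 CPM and the epiRIL mean 21.6 ± 4.71 CPM (SD, 36 libraries each).

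CHS3 ran from 9.61 through 21.6 to 30.6 CPM in epiHybrids and from 11.4 through 33.2 to 40.6 CPM in epiRILs, with 6.38 CPM in msCol 12 and 27.3 CPM in msCol 16. Its lowest epiRIL was also the library labelled epiRIL 568, and without families 12 and 568 the epiRILs started at 24.3 CPM. That library had a length slope of -0.31 and was the lowest epiRIL for SNC1 (107 CPM), RPP4 (101 CPM) and RPP5 (76.1 CPM) too. Its low values were thus not particular to the pair. The epiHybrid mean of CHS3 was 21.6 ± 5.30 CPM and its epiRIL mean 32.3 ± 5.65 CPM (SD, 36 libraries each). For both genes msCol 12 lay below every epiRIL and every epiHybrid. msCol 16 lay above 8 of 36 epiHybrids for CSA1 and above 29 of 36 for CHS3.

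The 3 receptors of the chromosome 4 cluster were expressed at a higher level and at nearly equal levels in all groups. SNC1 ran from 92.0 through 228 to 370 CPM in epiHybrids and from 107 through 237 to 299 CPM in epiRILs, with 246 and 258 CPM in msCol 12 and msCol 16. RPP4 ran from 103 through 171 to 236 CPM in epiHybrids and from 101 through 176 to 263 CPM in epiRILs, with 173 and 202 CPM in msCol. RPP5 ran from 65.1 through 134 to 171 CPM in epiHybrids and from 76.1 through 140 to 179 CPM in epiRILs, with 131 and 162 CPM in msCol. All 3 ranges overlapped almost wholly, and both msCol libraries lay inside them. The spread of SNC1 was wider in epiHybrids, with a coefficient of variation of 27.1% against 18.8% in epiRILs.

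ACD6 was the most abundant member and the only one with both msCol libraries near the bottom of the epiRIL range and of the epiHybrid range. It ran from 311 through 508 to 626 CPM in epiHybrids and from 362 through 534 to 691 CPM in epiRILs. msCol 12 had 364 CPM and msCol 16 had 353 CPM, and at most 1 library of each group lay below either of them. Its spread was the smallest of the members, at 13.99% of the mean in epiHybrids and 13.2% in epiRILs. Per kb of exon, the epiRIL medians were 165 CPM for ACD6, 46.3 for SNC1, 43.7 for RPP4, 24.1 for RPP5, 6.23 for CHS3 and 5.56 for CSA1. In this order SNC1 and RPP4, and CHS3 and CSA1, differed by less than 1 SD between epiRILs.

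**Figure D1:**
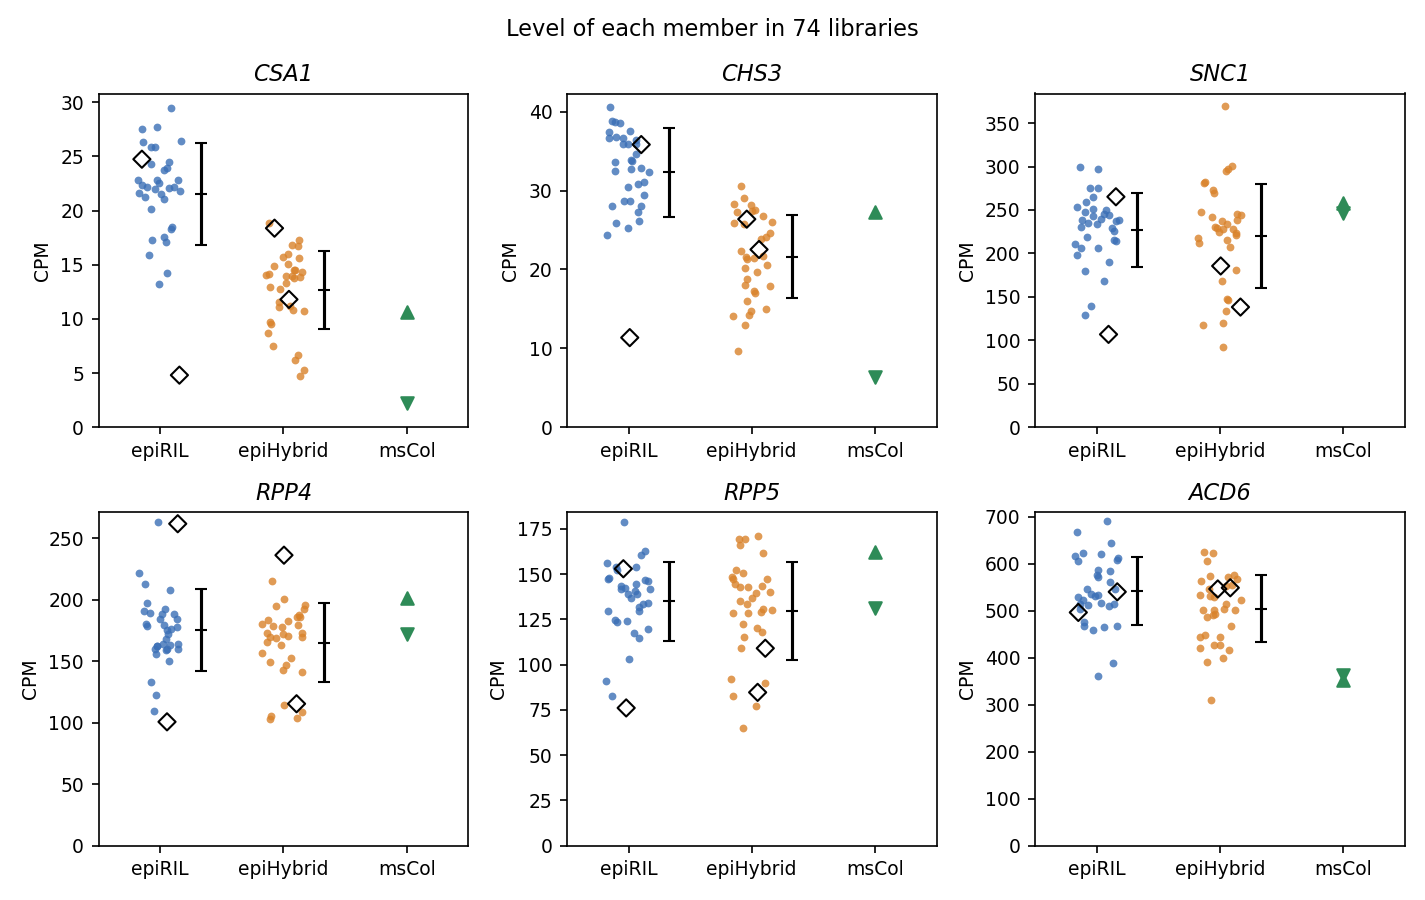
CPM of each member in 36 epiRILs, 36 epiHybrids and 2 msCol lines. Points are libraries, bars are the mean with 1 SD, open diamonds mark families 12 and 568, and the downward and upward triangles are msCol 12 and msCol 16. CSA1 and CHS3 lie lower in epiHybrids (medians of 13.8 and 21.6 CPM) than in epiRILs (22.2 and 33.2 CPM), while the other 4 members overlap.

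The question of the first comparison was how an epiHybrid differs from its own father. In an edgeR quasi-likelihood fit with the family as a block, the log2 fold change from epiRIL to epiHybrid was -0.78 ± 0.10 (SE) for CSA1 and -0.60 ± 0.08 (SE) for CHS3. The values were -0.85 and -0.64 without families 12 and 568. Both were among the genes called lower across the whole table, which made up 0.939% of the genes tested. CSA1 had been chosen on this contrast and CHS3 with its levels known, so nothing is read from these 2 calls. CSA1 was lower in the epiHybrid in 35 of 36 families and CHS3 in 34. The exception for CSA1 was family 568, where the library labelled epiHybrid had 11.8 CPM and the one labelled epiRIL 4.80 CPM. In family 12 the library labelled epiHybrid was the lower one, with 18.4 against 24.7 CPM for CSA1 and 26.4 against 35.8 CPM for CHS3. Family 12 thus went with its labels for the pair. Without families 12 and 568, CSA1 was lower in 34 of 34 families and CHS3 in 33.

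The ratio of epiHybrid to father had a median of 0.627 for CSA1 and ran from 0.192 in family 340 to 2.46 in family 568. For CHS3 the median was 0.740 and the range 0.319 in family 79 to 1.98 in family 568. The size of the drop was shared by the pair: over 36 families, the log2 differences of CSA1 and CHS3 had r = 0.92 and rho = 0.85, r = 0.91 without the 2 families farthest from the median, and r = 0.89 after regression on the difference in length slope. These are descriptions, as the points share libraries.

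The other members had log2 fold changes of -0.07 ± 0.07 (SNC1), -0.09 ± 0.06 (RPP4), -0.07 ± 0.06 (RPP5) and -0.10 ± 0.04 (ACD6), each with its SE, and were not among the genes called. They were -0.07, -0.10, -0.06 and -0.12 without families 12 and 568. SNC1 and RPP5 were lower in the epiHybrid in 18 of 36 families, RPP4 in 23 and ACD6 in 22. Their median ratios of epiHybrid to father lay between 0.942 and 0.999.

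**Figure D2:**
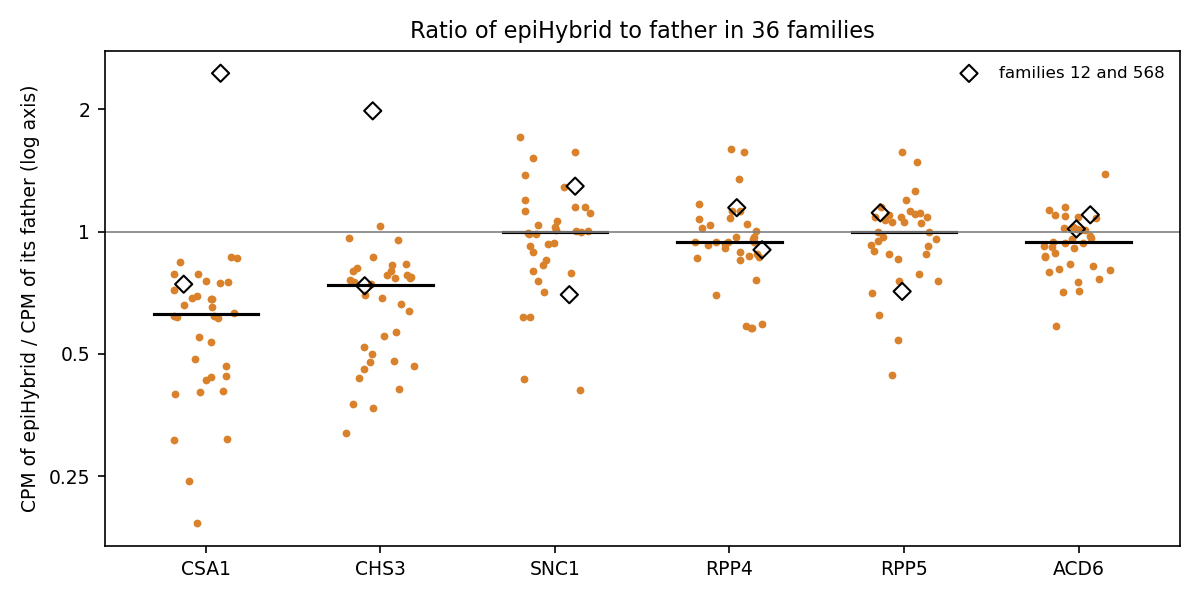
Ratio of the CPM of each epiHybrid to that of its own father on a log axis, 36 families per member. Lines are medians and open diamonds mark families 12 and 568. CSA1 and CHS3 have medians of 0.627 and 0.740, and the 4 other members lie around 1.

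The 2 msCol libraries were then set against the epiRILs in a fit over all 74 libraries. The log2 fold change of epiRIL over msCol was 1.75 ± 0.39 (SE) for CSA1, 0.94 ± 0.29 (SE) for CHS3 and 0.60 ± 0.16 (SE) for ACD6. CSA1 and ACD6 were among the genes called higher in epiRILs, 1.19% of all genes tested, and nothing is read from this since the levels were known when the members were chosen. For the pair the values rest on 2 msCol libraries that differ widely. Without msCol 12 the value of CSA1 was 1.03 and not called, and without msCol 16 it was 3.24. For CHS3 it was 0.25 without msCol 12 and 2.33, then called, without msCol 16. CHS3 was also called by DESeq2 (0.94), without families 12 and 568 (0.96), without families 310, 340 and 368 (0.93), with the length slope as covariate (1.07) and with both groups alone (0.94). CSA1 was 1.77 and ACD6 0.60 without families 12 and 568. ACD6 was 0.62 without msCol 12 and 0.57 without msCol 16, with neither called. SNC1, RPP4 and RPP5 had values of -0.15, -0.09 and -0.12 and were not called.

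Between epiHybrids and msCol, where 1.83% of all genes were called in either direction, the edgeR fit of all libraries called no member. At an unadjusted p under 0.05 there were 2, CSA1 with 0.98 ± 0.36 and ACD6 with 0.49 ± 0.15 (log2 fold change, SE), and DESeq2 called 1, ACD6. ACD6 was also called by edgeR with the length slope as covariate (0.51) and without families 310, 340 and 368 (0.50), and CSA1 with the slope (1.17). No member was called without families 12 and 568, with 0.97 for CSA1, 0.35 for CHS3 and 0.49 for ACD6. This contrast shares its msCol libraries with the previous one. For CHS3 the value was 0.36 ± 0.28 (SE), -0.33 without msCol 12 and 1.75, then called, without msCol 16. CSA1 was called at 2.47 without msCol 16 and was 0.26 without msCol 12.

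The difference between the 2 msCol lines was itself large for the pair. CSA1 was 4.66-fold and CHS3 4.27-fold higher in msCol 16 than in msCol 12, from 413 against 90 counts and 1063 against 253 counts. By the size of this difference they ranked 106 and 125 of 19018 genes with enough counts in these libraries. The other members differed by at most 1.24-fold. With 1 library a line there is no replicate of this difference.

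Relative to both parents, with the mean of both msCol libraries as the mother, CSA1 lay between father and mother in 32 of 36 families and CHS3 in 27. The mean of the epiHybrids was 12.7 CPM against a mid-parent of 13.998 CPM for CSA1, and 21.6 against 24.6 CPM for CHS3. Both statements depended on the msCol line. With msCol 12 as mother, CSA1 lay between its parents in 35 families and CHS3 in 34, and the epiHybrid means were above mid-parents of 11.9 and 19.3 CPM. With msCol 16 as mother, CSA1 lay between in 27 families and CHS3 in 9, with 27 below both, and the means were below mid-parents of 16.1 and 29.8 CPM. Without families 12 and 568, and with the msCol mean, CSA1 lay between in 31 of 34 families and CHS3 in 26. For ACD6 the epiHybrid lay between its parents in 21 families and above both in 14, and its mean of 505 CPM was 12.1% above the mid-parent of 450 CPM. SNC1, RPP4 and RPP5 lay below both parents in 18, 20 and 16 families and above both in 8, 4 and 8. With msCol 12 as mother they lay below both in 17, 15 and 13 families and above both in 8, 9 and 14. With msCol 16 as mother they lay below both in 18, 21 and 18 families and above both in 8, 0 and 4. All families share the msCol values, so these counts are not independent.

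The position of the pair on chromosome 5 was examined next. CSA1 was chosen on the contrast of epiHybrids with epiRILs, and the pair was named as neighbours in the choice. Calls near them are therefore a description and no independent support. Beside the pair, 46 genes with a start within 100 kb were tested. Between epiHybrids and epiRILs, 8 of these 46 fell and 2 rose, beside 254 of all 19383 genes called in either direction. Between epiRILs and msCol, 3 of the 46 were higher in epiRILs and none lower, beside 533 of all genes called. When families 12 and 568 were left out, 9 fell, 2 rose and 4 were higher in epiRILs. Leaving out either msCol library left 1 of the 3, and 8 were called without families 310, 340 and 368 or with both groups alone. Those 3 were AT5G17700, PSRP6 (AT5G17870, a protein of the chloroplast ribosome) and AT5G18040. PSRP6 had medians of 70.3 CPM in epiHybrids and 90.9 CPM in epiRILs, with 31.1 and 47.2 CPM in msCol 12 and msCol 16. It fell in epiHybrids by 0.44 ± 0.10 on the log2 scale (edgeR, SE, adjusted p = 0.0116) and was higher in epiRILs than in msCol by 1.30 ± 0.37 (edgeR, SE, adjusted p = 0.0375).

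AT5G18040 had medians of 9.61 and 13.1 CPM in epiHybrids and epiRILs, with 5.80 and 8.00 CPM in msCol. It fell in epiHybrids by 0.47 ± 0.05 on the log2 scale (edgeR, SE, adjusted p = 1.64e-07) and was higher in epiRILs than in msCol by 0.93 ± 0.19 (edgeR, SE, adjusted p = 0.000636). AT5G17700 had medians of 16.3 and 18.7 CPM, with 8.40 and 7.46 CPM in msCol. In these 3 genes the epiHybrid median lay between the epiRIL median and both msCol values. Of the calls between epiRILs and msCol, that of AT5G17700 was lost without msCol 16 (edgeR adjusted p = 0.134), that of AT5G18040 without msCol 12 (edgeR adjusted p = 0.193), and that of PSRP6 without either (edgeR adjusted p = 0.474 without msCol 12 and 0.180 without msCol 16).

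The window of 1 Mb to each side was divided at AT5G17090. It is the first gene called between epiHybrids and epiRILs when coming from the side away from MS1. For edgeR the absence of calls before it follows from this choice. Over the whole table, 254 of 19383 genes were called in this contrast. Of 167 tested genes from the far end of this window on the side away from MS1 up to AT5G17090, none was called between epiHybrids and epiRILs by edgeR or by DESeq2, with 15 and 16 at an unadjusted p under 0.05. With the length slope as covariate 2 were called. From AT5G17090, 294 kb before the middle of the pair (chr5:5621249), to 1 Mb beyond it, 45 of 284 were called (15.8%), 26 lower and 19 higher. The counts were 0 of 167 and 50 of 284 without families 12 and 568. Both CSA1 and CHS3 lie inside this stretch and are counted in it. The division at AT5G17090 was chosen after its values were seen and has no test. The study gives a length for the Ler segment around MS1 that exceeds the distance from MS1 to the pair, but the positions of its ends are not given in the sources used here. Whether it reaches CSA1 and CHS3, and how its alleles align to the Columbia reference, was not tested.

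**Figure D3:**
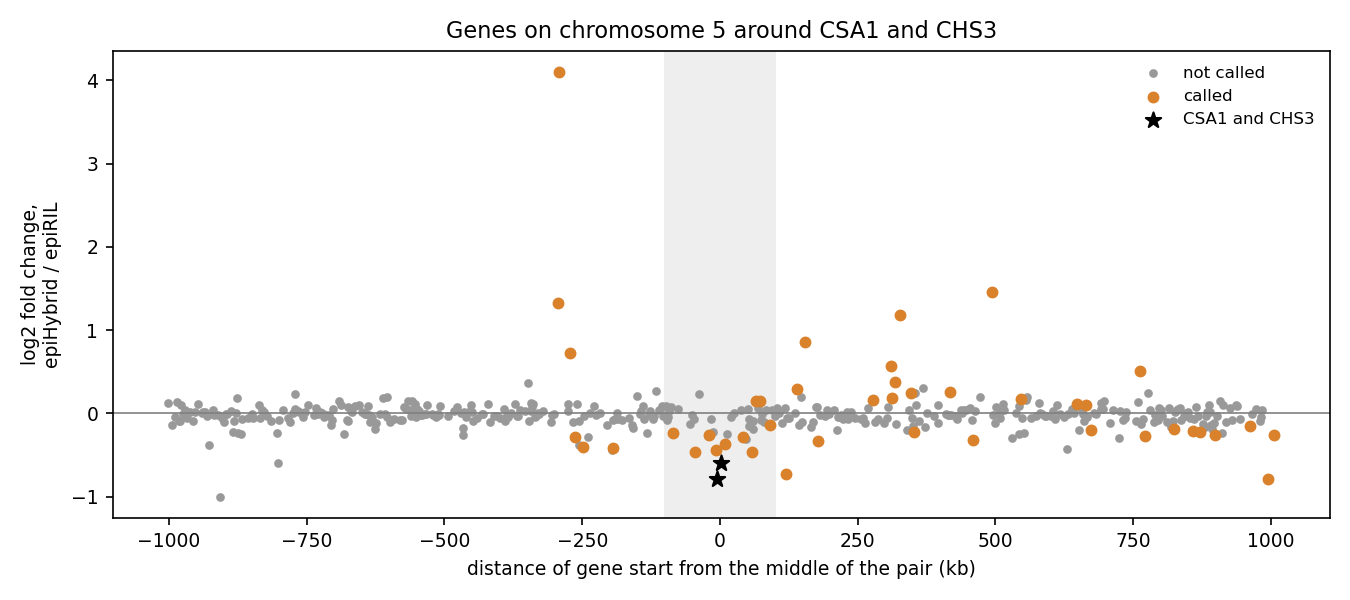
Log2 fold change from epiRIL to epiHybrid of each tested gene within 1 Mb of the pair, against the distance of its start from the middle of the pair in kb. MS1 lies to the right. Orange points passed an adjusted p of 0.05, stars are CSA1 and CHS3, and the grey band is 100 kb to each side. The leftmost called gene, at -294 kb, sets the division of the window, and 45 of 284 are called from there on.

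Around the other members few genes were called, as in the whole table, where 254 of 19383 genes were called between epiHybrids and epiRILs. Counts of 0 are near that share and are not read as a trait of these places. Of 45 tested genes within 100 kb of ACD6, none was called between epiHybrids and epiRILs by edgeR or DESeq2, with 5 at an unadjusted p under 0.05. There, HCD1 (AT4G14440) was higher in epiRILs than in msCol, by 0.59 ± 0.16 on the log2 scale (edgeR, SE, adjusted p = 0.0278), a call lost without either msCol library. HCD1 had medians of 38.6 and 37.5 CPM in epiHybrids and epiRILs against 27.5 and 22.7 CPM in msCol, lower in both msCol libraries as ACD6 was. The chromosome 4 cluster held 24 loci of the table, of which 16 beside the 3 members were tested, and edgeR and DESeq2 called none of them in any of the 3 contrasts, with 1 or 2 at an unadjusted p under 0.05. With the length slope as covariate edgeR called RLM3 (AT4G16990) lower in epiHybrids, by -0.11 ± 0.02 (log2, SE, adjusted p = 0.00711). Against msCol, 1 cluster gene was called in each group without families 310, 340 and 368, and 2 in epiRILs with both groups alone. None was called without families 12 and 568. Their median log2 fold change was -0.01 between epiHybrids and epiRILs, where that of all genes was -0.00.

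A further question was whether a father's level was found again in its epiHybrid, which the choice of members did not use. Over 36 families, none of the 6 members passed an adjusted p of 0.05 (one-sided permutation test of r over all genes), beside 18.3% of all genes. With 6 genes a count of 0 is near that share and is not read as a difference from all genes. At an unadjusted p under 0.05 there were 3. ACD6 had r = 0.33 (rho = 0.41, adjusted p of r 0.0767 by permutation, n = 36), SNC1 r = 0.32 (rho = 0.26, adjusted p = 0.0846) and RPP4 r = 0.32 (rho = 0.35, adjusted p = 0.0833), all by permutation. RPP5 had r = 0.28 (rho = 0.18, adjusted p = 0.112 by permutation). The median r of all genes was 0.27.

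CSA1 had r = 0.11 (rho = 0.09, adjusted p = 0.294 by permutation) and CHS3 r = -0.03 (rho = -0.09, adjusted p = 0.568 by permutation), both under that median. Leaving out the 2 fathers farthest from the median gave r = 0.33 for ACD6, 0.28 for RPP4, 0.11 for SNC1, 0.01 for RPP5, 0.01 for CSA1 and -0.01 for CHS3. The r of SNC1 and RPP5 was thus lower without those fathers, and the median r of all genes was 0.20 in that setting. Without families 310, 340 and 368, RPP4 (r = 0.39, permutation adjusted p = 0.0471) and RPP5 (r = 0.47, permutation adjusted p = 0.0296) passed. SNC1 had r = 0.40 there (permutation adjusted p = 0.0511). Without families 12 and 568, r was 0.11 for RPP4, 0.25 for SNC1, 0.18 for RPP5, 0.34 for ACD6, 0.14 for CSA1 and -0.00 for CHS3. After regression on the length slope, r was -0.43 for CHS3, -0.22 for CSA1 and 0.44 for RPP4, and none of the 6 passed (permutation adjusted p = 0.998, 0.916 and 0.0535 for these 3). The test is one-sided for r above 0, so the negative values have no test.

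Members varied together from library to library, much of it along the length slope. In epiRILs, r with the length slope was 0.93 for SNC1, 0.92 for RPP5, 0.84 for CSA1, 0.83 for CHS3 and 0.74 for RPP4, and in epiHybrids it was 0.94, 0.89, 0.60, 0.59 and 0.83 in the same order (n = 36 each, described with no test). ACD6 had 0.21 and 0.10. The median over all genes was -0.07 in epiRILs and -0.08 in epiHybrids. The slope and the members come from the same libraries.

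Over 72 libraries centred by group, CSA1 and CHS3 had r = 0.92, and each had its highest r of all 19382 other genes with its partner. After regression on the length slope the pair kept r = 0.84 and still ranked first for both. Before the regression, r was 0.89 without families 12 and 568. For SNC1 and RPP5, r fell from 0.89 to 0.27, for SNC1 and RPP4 from 0.82 to 0.35, and for RPP4 and RPP5 from 0.82 to 0.41. By rank the drop was smaller, with rho after regression of 0.46 for SNC1 and RPP5, 0.35 for SNC1 and RPP4 and 0.60 for RPP4 and RPP5. For SNC1 and RPP5, r after regression was 0.67 in epiRILs alone and 0.05 in epiHybrids alone. Between SNC1 and CSA1, r over all 72 libraries was 0.69 before and 0.17 after. ACD6 had r of 0.13 to 0.37 with the others before and 0.03 to 0.37 after. Reads shared within the cluster also enter the values of its 3 members, and their part in these correlations was not tested.

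**Figure D4:**
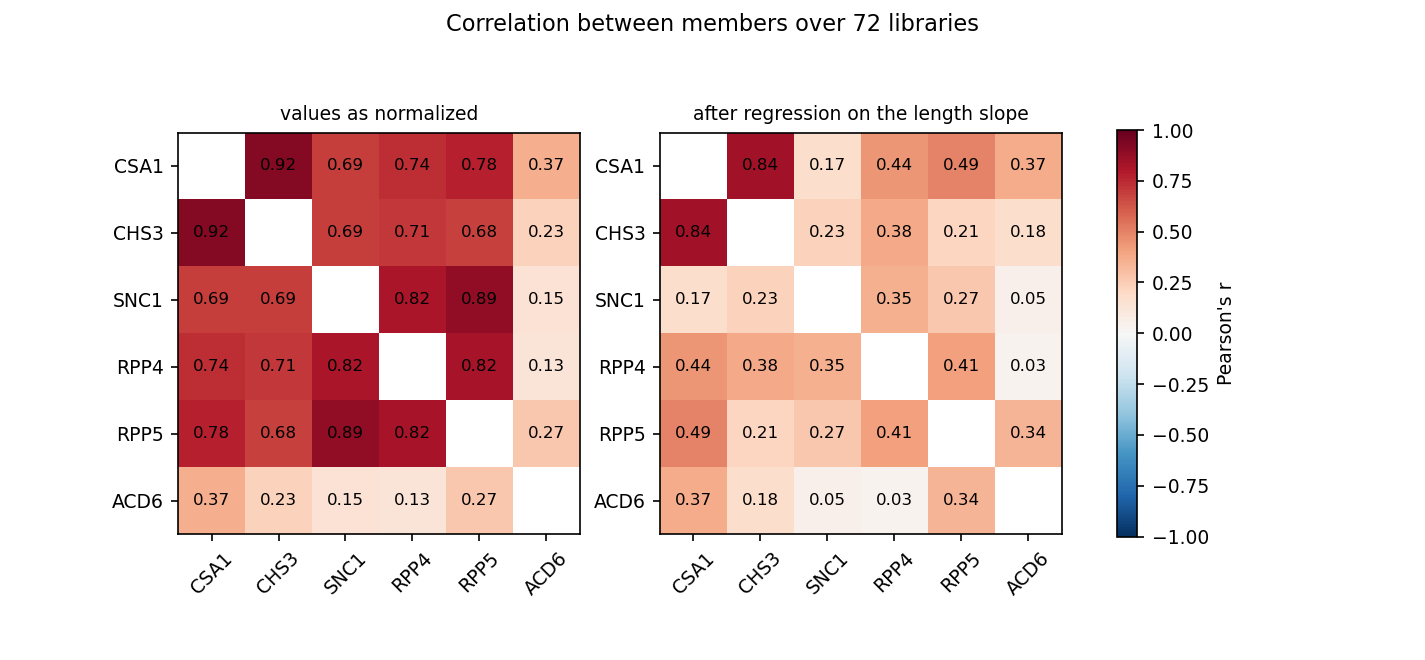
Pearson's r between members over 72 libraries centred by group, as normalized (left) and after regression on the length slope within each group (right). CSA1 and CHS3 keep 0.84, while the cluster members SNC1, RPP4 and RPP5 go from 0.82 to 0.89 down to 0.27 to 0.41.

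**Figure D5:**
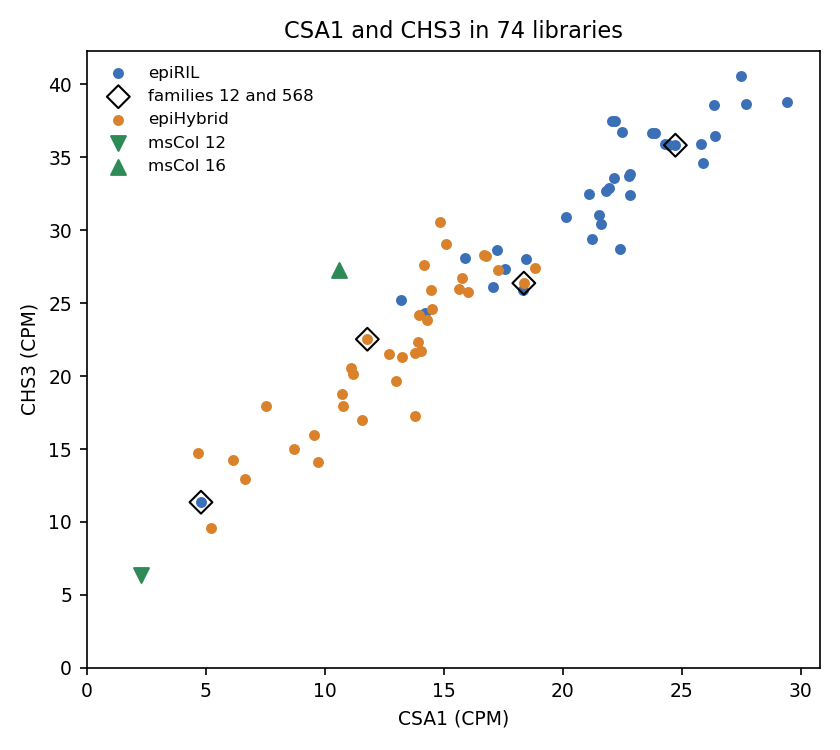
CPM of CHS3 against CPM of CSA1 in 36 epiRILs, 36 epiHybrids and both msCol lines. Open diamonds mark families 12 and 568. The epiRIL and epiHybrid libraries lie near a line, with msCol 12 at the low end (CSA1 2.27 and CHS3 6.38 CPM). msCol 16 (10.6 and 27.3 CPM) lies off it, with more CHS3 than epiHybrids of like CSA1.

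After this regression, the genes closest to CSA1 were CHS3, AT5G25040 (r = 0.75) and AT5G17190 (r = 0.66), and those closest to CHS3 were CSA1, AT5G18040 (r = 0.67) and AT5G17900 (r = 0.65). All of these lie on chromosome 5, between 5.65 and 8.62 Mb. For RPP4 they were AT4G16880 (r = 0.62), which lies in the same cluster, AT5G48620 (r = 0.54) and AT2G04230 (r = 0.52). AT4G16880 holds 2.51% of the 50-base windows of RPP5, and was not among the loci that shared most with RPP4. For SNC1 they were AT1G06650 (r = 0.70), AT4G36140 (r = 0.67) and RPP8 (r = 0.67, a downy mildew receptor gene), for RPP5 AT2G14910 (r = 0.79), AT5G64880 (r = 0.76) and AT1G32160 (r = 0.75). For ACD6 they were WAK1 (r = 0.78, a kinase bound to the cell wall), AT5G59670 (r = 0.78) and AT2G41090 (r = 0.76). All values are over 72 libraries.

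Few genes of the lists below were called, and few are called in the whole table. Of 19383 genes, 254 were called between epiHybrids and epiRILs, 533 between epiRILs and msCol and 355 between epiHybrids and msCol. Low counts in lists this small are not read as a trait of the lists. Of 9 genes of TIR-NLR signalling, which include EDS1, PAD4, SAG101 and the helper NLRs, edgeR and DESeq2 called none in any of the 3 contrasts, and 1 had an unadjusted p under 0.05, between epiHybrids and msCol. Their log2 fold changes from epiRIL to epiHybrid ran from -0.10 to 0.01, with a median of -0.04. EDS1, PAD4, ICS1 and PR1 are named for their roles, after their values were seen. EDS1 had a median of 32.3 CPM in epiHybrids and 32.0 CPM in epiRILs, with 34.6 and 30.3 CPM in msCol, so its groups overlapped. PAD4 had medians of 56.9 and 55.7 CPM.

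Of 15 genes of salicylic acid synthesis, perception and output, 1 fell in epiHybrids. Against msCol neither edgeR nor DESeq2 called any, with 3 at an unadjusted p under 0.05 in epiRILs and 1 in epiHybrids by edgeR. The gene that fell was CBP60g (AT5G26920, chromosome 5), a transcription factor that activates genes of salicylic acid synthesis, with medians of 20.5 CPM in epiHybrids and 27.3 CPM in epiRILs and 16.2 and 20.9 CPM in msCol. Its log2 fold change was -0.46 ± 0.07 (edgeR, SE, adjusted p = 5.31e-05), and -0.48 without families 12 and 568. Its start lies at 9.48 Mb, on the same chromosome as MS1, CSA1 and CHS3. The median of the list was -0.11, against -0.00 for all genes. ICS1, which makes the salicylic acid precursor, had medians of 26.1 and 26.0 CPM. PR1, a widely used marker of that response, had 45.9 and 49.96 CPM and spread from 17.6 to 148 CPM in epiHybrids, with 74.1 CPM in msCol 12 and 23.1 CPM in msCol 16.

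None of the 15 tested regulators of NLR levels, of the 5 receptor kinases and partners tied to CSA1 and CHS3, or of the 7 DA1 family genes was called in any contrast by the edgeR fit of all libraries, or without families 12 and 568. At an unadjusted p under 0.05, the counts between epiHybrids and epiRILs were 2, 1 and 1. DESeq2 called 1 of the receptor kinases there and none otherwise. With the length slope as covariate edgeR called 1 gene of each of these 3 lists between epiRILs and msCol. Between fathers and epiHybrids, r passed the threshold by permutation for 2 of 9 TIR-NLR signalling genes, 4 of 15 salicylic acid genes, 4 of 15 regulators, 2 of 5 kinases and 3 of 7 DA1 family genes, beside 18.3% of all genes. Among them were SAG101 (r = 0.49), PR2 (r = 0.49), HSP90.1 (r = 0.45), BIR3 (r = 0.46) and DAR3 (r = 0.49). The lists were chosen with earlier results of these data known, and their median r of 0.22 to 0.40 stands beside 0.27 for all genes.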

How the data were processed

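The authors trimmed reads with Trim Galore, aligned them to TAIR10 with TopHat2 and counted them with featureCounts, and deposited raw counts per gene. Versions, strand setting and the handling of multiply mapped reads are not given in the sources used here. The members and lists were chosen with earlier results of these data known. Genes with 1 CPM in 2 libraries were kept and TMM factors were computed (edgeR 4.0.16, R 4.3.3). epiHybrids were compared with epiRILs by the quasi-likelihood test with the family number as block, since a number joins an epiHybrid to its own father, and both groups with msCol in a fit of all 74 libraries, with Benjamini-Hochberg adjustment. Fathers and epiHybrids were correlated on log2(CPM + 1) with 100000 shuffles of the pairing. DESeq2 1.42.0, other filters, size factors and omissions were alternatives. Named genes were the members, the neighbours called between epiRILs and msCol, the 3 genes most like each member, and the 3 lowest adjusted p values of a list. Positions and sequences came from RefSeq on TAIR10.1. 32548 gene IDs matched it. The fits were tested on simulated data.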

Additional observations from a re-analysis of the deposited data

How the results depend on the processing

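Over 7 alternatives the log2 fold change from epiRIL to epiHybrid was -0.85 to -0.70 for CSA1 and -0.64 to -0.55 for CHS3, which is no independent support, as the members were chosen with these values known. The omission of families 12 and 568, the separate msCol mothers and the regression on the slope in each group alone were chosen after seeing the data. The number of genes called in that contrast was 254 with the family as block, 165 with no block and 399 with the length slope as covariate. Between epiRILs and msCol it was 533, and 1048 without families 310, 340 and 368, 1016 with the slope and 1093 with both groups alone. Leaving out an msCol line gave 127 to 220. Between epiHybrids and msCol it was 355, and 615 with DESeq2, 769 without families 310, 340 and 368, 728 with the slope, 178 with both groups alone and 88 to 126 without an msCol line. For father and epiHybrid it was 3546, and 1055 without the 2 farthest fathers, 6320 without families 310, 340 and 368 and 1912 by rho. The r of CSA1 with CHS3 was 0.92, 0.84 after regression on the slope, 0.96 in epiRILs alone, and 0.83 in epiHybrids alone after that regression. Signs turned for log2 fold changes over msCol in epiRILs of SNC1 (0.0180), RPP4 (0.0201) and RPP5 (0.0171) with the slope. Without an msCol line the values were -0.200 to 0.0185 for RPP4 and -0.264 to 0.0383 for RPP5 in epiRILs, and -0.333 to 1.75 for CHS3 in epiHybrids. Signs also turned for the father to epiHybrid r of CSA1 (-0.22, after regression on the slope) and CHS3 (0.0136, without families 310, 340 and 368). After regression on the slope the r of CHS3 was -0.43. The epiHybrid mean lay above the mid-parent, by 0.772 CPM for CSA1 and 2.29 CPM for CHS3, with msCol 12 as mother, and below it with the msCol mean. The cause of these shifts was not tested. With 2 msCol libraries, any level set against msCol has little support.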
